A study of Mus musculus with 36 samples.

Results

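The 42 genes described here encode parts of the cell cycle machinery of the embryonic mouse gut. Of these, 18 act in DNA replication or S phase entry and 24 act in mitosis. They were selected by gene symbol, and each symbol matched 1 of the 23847 gene entries in every library. RNA was sequenced from guts dissected from C57BL/6J embryos at 3 stages, named by embryonic day: E10.5, then E12.5, then E14.5. At each stage 4 groups of 3 libraries were made: female and male guts with the labelled genotype wildtype, and female and male guts labelled Ret null, the homozygous null state of the receptor tyrosine kinase gene Ret. The tissue was the whole dissected gut, and messenger RNA was captured with oligo-dT beads, so that muscle, epithelium, mesenchyme, nerve and blood cells could all contribute. The labels do not name the null allele and do not say whether a group's libraries were made from separate embryos or pools. The p-values therefore weigh differences against the scatter of these samples only, and that scatter may be technical. Values are FPKM, fragments per kilobase of transcript scaled to the mapped fragments of the library, as the authors deposited them.

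Before S phase, Cdc6 and Cdt1 load the hexameric MCM helicase (Mcm2 to Mcm7) onto replication origins, and Mcm10 and the GINS complex (Gins1, Gins2) help to turn it into an active helicase. The transcription factor E2f1 and the E cyclins Ccne1 and Ccne2 drive entry into S phase, Rrm1, Rrm2 and Tyms supply deoxynucleotides, and Pcna is the sliding clamp of the DNA polymerases. Later in the cycle, Cdk1 with cyclins A and B (Ccna2, Ccnb1, Ccnb2), the kinases Plk1, Aurka, Aurkb and Nek2, the spindle checkpoint genes Bub1, Bub1b, Mad2l1 and Ttk, and motors such as Kif11 carry cells through mitosis, and Ube2c and Cdc20 take part in ending it. In the gut at these stages, mesenchyme, epithelium and the incoming neural crest cells all divide, and Ret is best known there as the receptor for GDNF in crest cells that form the enteric nervous system.

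Replication and mitosis genes are textbook examples of different promoter elements, and the promoters of a pair of helicase genes and a pair of checkpoint genes are therefore shown first. RefSeq promoter windows on GRCm38.p6 ran from 250 bases before to 50 bases after the transcription start. They matched 34 of the 42 members, 14 in replication and 20 in mitosis, and 16338 genes in all. For 31 of the 34 members the RefSeq start lay within 100 bases of the deposited gene start. It was 426 bases away for E2f1, 262 for Cdc6 and 247 for Mad2l1. The windows were searched on both strands for E2F-type letters (TTTCCCGC, TTTGGCGC, TTTCGCGC or TTTGCCGC), for CHR letters (the cell cycle homology region, TTTGAA or TTCGAA) and for CCAAT. E2F matches on opposite strands can overlap. Below, capitals mark each match to one of these motifs on either strand.
Mcm6 (chr1:128359656-128359955, minus strand): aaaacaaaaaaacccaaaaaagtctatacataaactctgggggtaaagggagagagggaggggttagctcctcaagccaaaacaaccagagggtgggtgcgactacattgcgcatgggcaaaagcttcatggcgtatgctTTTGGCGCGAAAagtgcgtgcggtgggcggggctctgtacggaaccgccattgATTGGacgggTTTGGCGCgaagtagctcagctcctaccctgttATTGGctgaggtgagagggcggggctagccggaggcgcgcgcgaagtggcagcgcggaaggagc
Mcm5 (chr8:75109259-75109558, plus strand): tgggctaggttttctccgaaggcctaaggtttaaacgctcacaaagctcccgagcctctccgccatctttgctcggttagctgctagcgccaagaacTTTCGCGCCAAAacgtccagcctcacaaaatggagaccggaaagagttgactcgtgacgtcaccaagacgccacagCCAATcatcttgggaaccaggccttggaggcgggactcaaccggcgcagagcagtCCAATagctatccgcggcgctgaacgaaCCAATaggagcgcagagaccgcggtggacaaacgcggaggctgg
Bub1 (chr2:127831810-127832109, minus strand): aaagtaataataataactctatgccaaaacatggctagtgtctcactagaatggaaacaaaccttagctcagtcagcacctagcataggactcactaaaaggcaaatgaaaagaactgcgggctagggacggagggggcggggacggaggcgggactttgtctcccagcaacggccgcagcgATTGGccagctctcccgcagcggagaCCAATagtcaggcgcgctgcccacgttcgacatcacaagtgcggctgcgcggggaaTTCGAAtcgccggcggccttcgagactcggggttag
Ttk (chr9:83834439-83834738, plus strand): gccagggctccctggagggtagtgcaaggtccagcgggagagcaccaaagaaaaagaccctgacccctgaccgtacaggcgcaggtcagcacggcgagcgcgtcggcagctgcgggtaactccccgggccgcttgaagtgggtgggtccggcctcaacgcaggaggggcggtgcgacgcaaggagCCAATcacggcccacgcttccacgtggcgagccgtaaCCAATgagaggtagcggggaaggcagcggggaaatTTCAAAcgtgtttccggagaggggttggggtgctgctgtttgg

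The helicase genes Mcm6 and Mcm5 held E2F-type letters and CCAAT but no CHR letters, whereas the checkpoint kinase genes Bub1 and Ttk held CHR letters near the start with a pair of CCAAT matches upstream. Over all matched members, E2F-type letters stood in 6 of 14 replication promoters (42.9%) and in 1 of 20 mitosis promoters (5%), against 2.87% of all 16338 promoters. CHR and CCAAT stood together in 14 of 20 mitosis promoters (70%) and in 2 of 14 replication promoters (14.3%), against 7.14% of all promoters. Those 2 replication promoters belonged to the helicase genes Mcm2 and Mcm7, and that of Mcm2 held no E2F-type letters. CCAAT alone was in 9 of 14 replication promoters, in 17 of 20 mitosis promoters and in 38.8% of all promoters, and CHR letters alone in 17.2% of all promoters. These matches describe the letters of the windows, and binding was not measured here.

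Sequencing depth, estimated from the authors' confidence intervals, was 4.85 to 40.9 M (mega) fragments per library, with E12.5 the deepest (17.4 to 40.9 M) and E14.5 the shallowest (4.85 to 8.06 M). The members were covered by a median of 1357 fragments per gene and library, with 92.6 as the smallest estimate. In 4 groups a pair of libraries differed by no more than sampling noise and was averaged and counted as 1 sample, which left 32 samples. The limits were a spread of 1.1 times the noise and 1% of genes beyond 3 SD. E14.5 Ret null male 2 and male 3 came near these limits (1.05 times, 1.59% of genes) and were kept apart. Ret RNA, which checks the genotype label, exceeded 1 FPKM in all 18 wildtype libraries and also in 7 of the 18 libraries labelled Ret null. Those 7 were female 1, 2 and 3 at E10.5, male 2 at E12.5, and female 1, female 3 and male 1 at E14.5. For each genotype comparison by stage the number of members called is given with and without them. Results for other cell cycle genes, for markers and for genotype by labelled sex are given with them only, as are most values of single members. In 4 libraries the sex-linked RNAs Xist and Ddx3y went against the labelled sex or were both present (E10.5 Ret null female 3 and male 1, E12.5 wildtype female 1 and 2).

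All 42 members were above 1 FPKM in each of the 32 samples. Of all 23847 gene entries, 12578 to 13644 reached 1 FPKM in a library. The members' levels ranged about as widely over the samples as those of other genes of like level. Pcna had the highest median over the samples (194 FPKM), Mcm7 and Mcm6 followed among replication genes (88.0 and 86.9 FPKM), and Ccne2 had the lowest (4.90 FPKM). Among mitosis genes Ube2c (119 FPKM), Top2a (90.1 FPKM), a topoisomerase that untangles sister chromatids, and Birc5 (86.7 FPKM), a subunit of the chromosomal passenger complex, had the highest medians, and the kinetochore protein gene Cenpf had the lowest (11.1 FPKM). FPKM is a level per length, so these levels can be set beside each other.

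The highest sample exceeded the lowest by less than 2-fold for 33 of the 42 members, 14 of 18 in replication and 19 of 24 in mitosis. The median of that ratio was 1.71 for replication genes and 1.68 for mitosis genes, against 1.71 for 8963 genes of like median level, of which 70.1% stayed under 2-fold. The most even members were Kif23 (1.34-fold), a cytokinesis motor, Mcm6 (1.38-fold) and Cdc20 (1.40-fold). The widest ranges were those of the kinetochore motor gene Cenpe (2.65-fold, from 7.44 to 19.7 FPKM), Rrm2 (2.58-fold, from 36.7 to 94.8 FPKM) and Cenpf (2.36-fold).

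The extremes fell in a few samples. The E14.5 wildtype male 1 library was the lowest of the 32 samples for 26 members, and E10.5 wildtype male 5 for 8 more. The averaged E10.5 wildtype females 1 and 2 were the highest for 19 members and E10.5 wildtype female 3 for 7. Within groups of 1 stage and labelled genotype, the median coefficient of variation was 15.4% for replication genes and 17.8% for mitosis genes in E10.5 wildtype guts and 13.6% and 11.97% in E14.5 wildtype guts. In the other 4 stage and genotype groups it was between 5.60% and 9.68%, so the wildtype guts of E10.5 and E14.5 were the ones whose samples differed most among themselves.

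**Figure D1:**
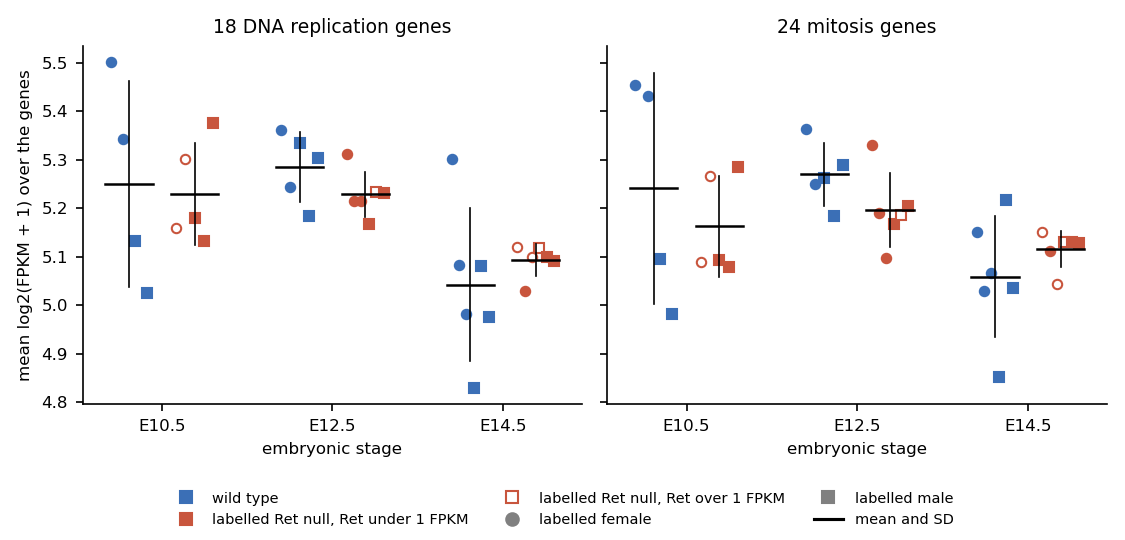
Mean log2(FPKM + 1) over the 18 DNA replication genes (left) and the 24 mitosis genes (right) in each sample, by embryonic stage; bars show the mean and SD of each labelled genotype. The averaged E10.5 wildtype females 1 and 2 lie highest in both panels, at 5.50 and 5.45, and E14.5 wildtype male 1 lies lowest, at 4.83 and 4.85.

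The first comparison asks whether the machinery changed as the wildtype gut grew from E10.5 to E12.5. No member passed the test (limma on log2(FPKM + 1), Benjamini-Hochberg adjusted p under 0.05 over all 14321 genes tested), and 4.57% of all genes were called in either direction. An unadjusted p under 0.05 was found for 5 of 42 members and for 2672 of all genes (18.7%). The median log2 fold change was 0.02 for replication genes and 0.04 for mitosis genes, and 0.01 over all genes. Kif23 came nearest, at 31.1, 29.5, 28.9, 28.4 and 27.8 FPKM in the 5 samples of E12.5 and 26.2, 26.6, 24.0 and 23.4 FPKM in the 4 samples of E10.5. Its groups did not overlap (log2 fold change 0.22, SE 0.07, adjusted p = 0.0634). Mki67, the gene of the proliferation marker Ki-67, was 51.7 ± 3.09 FPKM (SD, n = 5) at E12.5 and 59.8 ± 14.1 FPKM (SD, n = 4) at E10.5, with overlapping groups (log2 fold change -0.17, SE 0.12, adjusted p = 0.490). Smooth muscle markers differed between these stages (5 of 7 higher and 1 lower at E12.5, where they summed to 236 to 991 FPKM against 111 to 238 FPKM). Mesenchyme markers summed to 214 to 400 FPKM at E12.5 and to 115 to 185 FPKM at E10.5 (2 of 6 higher), crest progenitor markers to 55.5 to 90.3 FPKM and 16.2 to 42.1 FPKM (2 of 6 higher), and heart markers to 5.56 to 9.62 FPKM and 17.4 to 40.3 FPKM (none of 3 called). Their part in the members' values was not tested. Among 123 other cell cycle genes, only the Cdk1-activating phosphatase gene Cdc25b was called, and it rose by 0.56 on the log2 scale (adjusted p = 0.00598), from 11.7 ± 1.31 FPKM (SD, n = 4) to 18.0 ± 2.02 FPKM (SD, n = 5).

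Between E12.5 and E14.5, by contrast, most of the machinery fell in the wildtype gut. Of the 18 replication genes 11 fell and 1 rose, and of the 24 mitosis genes 12 fell and none rose. Over all 14321 genes 27.9% fell and 31.0% rose, so genes that fell were a larger share of the members (23 of 42) and genes that rose a smaller one (1 of 42) than over the whole table. The median log2 fold change was -0.24 for replication genes and -0.19 for mitosis genes, against 0.02 over all genes. The changes were small: the greatest fall, that of Rrm2, left the mean at 47.5 of 76.5 FPKM. In whole gut RNA, fewer cells of a dividing type and less RNA per cell cannot be told apart.

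Among replication genes Rrm2, Gins1 and Mcm4 had the largest falls. Rrm2, the small subunit of ribonucleotide reductase, was at 87.7, 72.3, 78.1, 67.2 and 77.3 FPKM in the 5 wildtype samples of E12.5 and ran from 36.7 to 70.4 FPKM, with a median of 43.6, in the 6 of E14.5. The groups overlapped only through E14.5 wildtype female 1, at 70.4 FPKM, since the next highest sample was at 50.9 FPKM. The fall was 0.72 on the log2 scale (SE 0.10, adjusted p = 3.25e-06). The GINS subunit gene Gins1 was at 24.2, 23.4, 23.5, 21.9 and 23.6 FPKM at E12.5 and ran from 10.7 to 19.8 FPKM, with a median of 14.8, at E14.5. All 6 later samples lay below all 5 earlier ones (log2 fold change -0.62, SE 0.10, adjusted p = 2.32e-05).

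Mcm4 had the smallest spread of the large falls. It was at 66.2, 64.4, 64.4, 58.1 and 62.3 FPKM at E12.5 and ran from 39.1 to 45.0 FPKM, with a median of 40.9, at E14.5. The gap between the groups was wider than either group's range (log2 fold change -0.60, SE 0.06, adjusted p = 1.34e-08). The remaining helicase genes fell less: Mcm7 by 0.34, Mcm2 by 0.26, Mcm6 by 0.22 and Mcm3 by 0.18 on the log2 scale. Mcm5 was not called, with 65.9, 55.0, 66.2, 60.8 and 59.2 FPKM at E12.5 and values from 42.5 to 65.0 FPKM, with a median of 55.2, at E14.5 (log2 fold change -0.17, adjusted p = 0.0852). The subunits of 1 hexamer were thus not lowered to the same degree in the estimates, from -0.60 for Mcm4 to -0.17 for Mcm5; a test of that difference between genes was not run.

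The other replication genes that fell were Ccne1 (-0.37), Rrm1 (-0.30), the large subunit that partners Rrm2, Tyms (-0.29), which makes thymidylate, and Cdc6 (-0.25). Pcna just missed the threshold: its 5 samples at E12.5 were at 223, 208, 217, 198 and 219 FPKM, and at E14.5 it ran from 146 to 230.3 FPKM, with a median of 189. E14.5 wildtype female 1, at 230.3 FPKM, stood above all E12.5 samples, and male 1, at 146 FPKM, below them (log2 fold change -0.18, SE 0.08, adjusted p = 0.0522). Ccne2, Gins2, Cdt1 and Mcm10 were not called either, with log2 fold changes of -0.20, -0.10, 0.05 and -0.05.

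E2f1 was the 1 member that rose. It was at 14.54, 13.5, 15.6, 14.8 and 15.0 FPKM in the wildtype samples of E12.5 and ran from 16.4 to 22.0 FPKM, with a median of 18.7, at E14.5. Every E14.5 sample was above every E12.5 sample (log2 fold change 0.34, SE 0.06, adjusted p = 4.46e-05). It thus moved in the opposite direction to the helicase and nucleotide genes.

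Among mitosis genes Bub1, Cenpe and Ttk had the largest falls. The checkpoint kinase gene Bub1 was at 22.5, 22.2, 19.5, 18.5 and 22.2 FPKM at E12.5 and ran from 12.02 to 16.1 FPKM, with a median of 13.8, at E14.5. No sample overlapped (log2 fold change -0.58, SE 0.08, adjusted p = 2.41e-06). Cenpe, the motor that links kinetochores to microtubules, was at 16.1, 15.0, 14.1, 14.3 and 15.1 FPKM at E12.5 and ran from 7.44 to 12.46 FPKM, with a median of 10.4, at E14.5, again without overlap (log2 fold change -0.57, SE 0.10, adjusted p = 5.01e-05). The checkpoint kinase gene Ttk was at 15.5, 17.0, 13.6, 13.5 and 15.0 FPKM at E12.5 and ran from 8.42 to 11.98 FPKM, with a median of 10.7, at E14.5. It also separated the stages fully (log2 fold change -0.50, SE 0.10, adjusted p = 0.000132).

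Cyclin B1 fell but its partner kinase did not pass the test. Ccnb1 was at 77.6, 71.5, 72.6, 69.7 and 77.0 FPKM at E12.5 and ran from 48.4 to 63.5 FPKM, with a median of 55.2, at E14.5 (log2 fold change -0.39, SE 0.07, adjusted p = 3.25e-05). Cdk1 was at 47.3, 44.5, 46.9, 41.8 and 46.0 FPKM at E12.5 and ran from 35.2 to 52.3 FPKM, with a median of 44.7, at E14.5, with E14.5 wildtype male 2 the highest of all 11 samples (log2 fold change -0.06, SE 0.07, adjusted p = 0.488). Top2a was at 109, 101, 97.9, 93.2 and 98.8 FPKM at E12.5 and ran from 66.2 to 90.1 FPKM, with a median of 79.4, at E14.5, so that the stages did not overlap (log2 fold change -0.37, SE 0.08, adjusted p = 0.000352). Mki67, in contrast, was at 55.9, 52.1, 48.6, 48.7 and 53.0 FPKM at E12.5 and ran from 34.2 to 55.9 FPKM, with a median of 51.2, at E14.5. Its E14.5 samples spread from the top of the E12.5 range to well below it (log2 fold change -0.16, SE 0.11, adjusted p = 0.217).

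The other mitosis genes that fell were Cenpf (-0.42), the cytokinesis motor genes Kif20a (-0.39) and Kif23 (-0.20), the spindle genes Tpx2 (-0.37), Kif11 (-0.34) and Nusap1 (-0.20), and the checkpoint gene Bub1b (-0.29). The 12 mitosis genes not called had log2 fold changes from -0.17 for the checkpoint gene Mad2l1 (adjusted p = 0.0552) to 0.12 for Aurkb, the kinase of the chromosomal passenger complex (adjusted p = 0.202). Plk1, Ccna2, Ccnb2, Ube2c and Cdc20 were all between -0.07 and 0.02. Of the 23 members that fell, 15 had no overlap between the stages, as did 61.4% of all 3992 genes that fell.

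**Figure D2:**
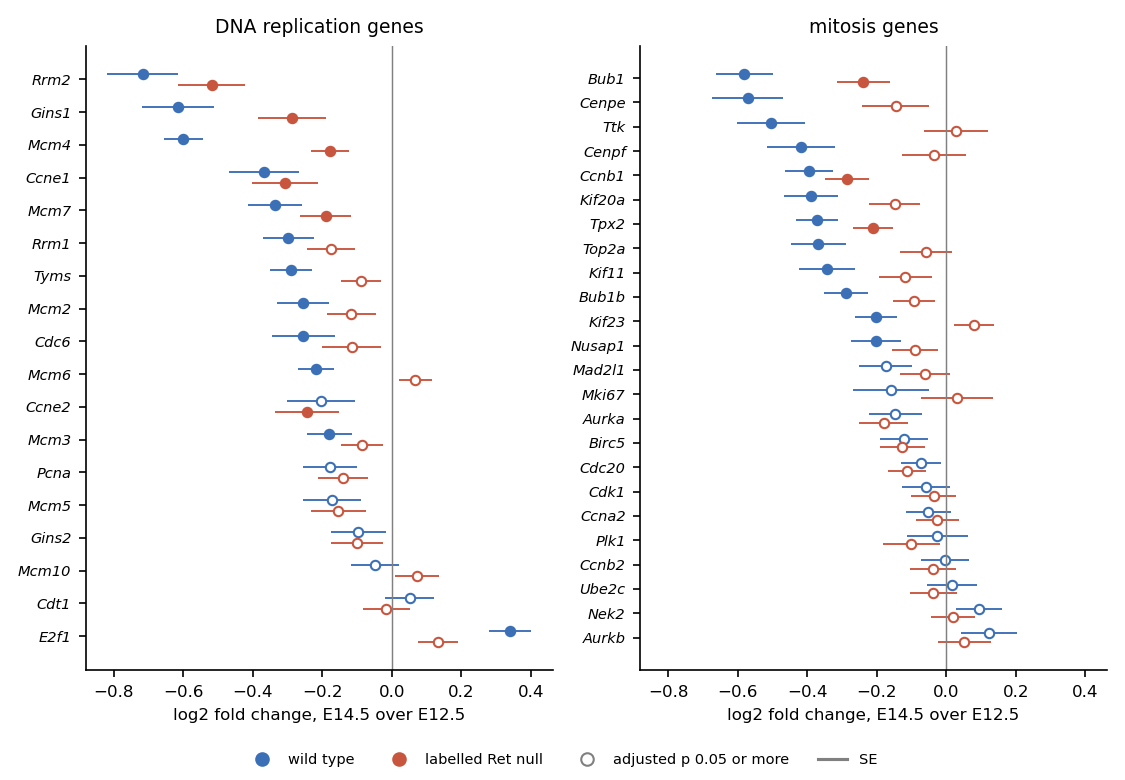
Log2 fold change from E12.5 to E14.5 of each DNA replication gene (left) and mitosis gene (right), in wildtype guts and in guts labelled Ret null; horizontal lines are standard errors and open points had an adjusted p of 0.05 or more. The wildtype estimates reach from -0.72 for Rrm2 to 0.34 for E2f1, and 9 of the estimates in guts labelled Ret null pass the test.

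Other genes of the cycle gave counts of the same kind. Of 44 other replication genes 32 fell and 1 rose, and of 50 other mitosis genes 32 fell and 2 rose. The CDK inhibitors, which hold cells back from dividing, were called in the other direction: 5 of the 6 tested rose and none fell. Cdkn1a (p21) went from 5.23 ± 1.1 FPKM (SD, n = 5) to 16.3 ± 3.75 FPKM (SD, n = 6) (1.46 on the log2 scale, adjusted p = 3.02e-07). Cdkn2c (p18) went from 1.69 ± 0.212 FPKM (SD, n = 5) to 5.69 ± 0.610 FPKM (SD, n = 6) (1.31, adjusted p = 6.53e-09). Cdkn2b (p15) was at 0.202 ± 0.0679 FPKM (SD, n = 5) at E12.5 and at 1.88 ± 1.01 FPKM (SD, n = 6) at E14.5 (1.19, adjusted p = 4.67e-07). The largest falls in this list were those of the E2F family gene E2f5 (-0.77), the origin recognition gene Orc2 (-0.56) and E2f6 (-0.54).

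Markers of several cell types moved over the same interval. All 7 smooth muscle markers rose in wildtype guts, their summed level going from 236 to 991 FPKM at E12.5 to 819.7 to 1567 FPKM at E14.5, and all 7 epithelial and all 5 tested pancreas markers rose. Embryonic red cell markers summed to 1842 to 5411 FPKM at E12.5 and to 104 to 1550.5 FPKM at E14.5 (1 rose and 3 fell of 6). Mesenchyme markers summed to 214 to 400 FPKM at E12.5 and to 105 to 174 FPKM at E14.5, without overlap. The part of all these markers in the falls was not tested. At E14.5, wildtype female 1 held a liver marker sum of 2592 FPKM (242 FPKM or less in the other 11 samples) and wildtype male 2 a heart marker sum of 1491 FPKM (67.1 FPKM or less in the others). Without these 2 libraries 30 members fell and 1 rose, while 26.7% of all genes fell and 29.7% rose. Depth differed between the stages, and depth and stage cannot be told apart. Leaving out any 1 sample left between 21 and 29 members called.

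In the guts labelled Ret null, 1 member fell from E10.5 to E12.5 and 9 fell from E12.5 to E14.5, and none rose. E2f1 was the member that fell first (2.48% of all genes fell in that comparison): it was at 18.1, 18.3, 18.5, 17.5 and 21.4 FPKM in the 5 samples of E10.5 and ran from 13.1 to 15.8 FPKM, with a median of 15.1, in the 6 of E12.5 (log2 fold change -0.31, SE 0.06, adjusted p = 0.00635). The groups did not overlap. When the Ret-holding libraries were left out, which leaves at E10.5 only the samples labelled male, 1 of them (male 1) with Xist and no Ddx3y, no member was called and 0.0632% of all genes fell. From E12.5 to E14.5 6 replication genes and 3 mitosis genes fell, against 11.8% of all genes, and the median log2 fold change was -0.13 for replication and -0.08 for mitosis genes, against 0.04 over all genes.

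Rrm2 again had the largest fall. It ran from 65.1 to 79.4 FPKM, with a median of 74.2, at E12.5 and from 48.7 to 54.2 FPKM, with a median of 50.1, at E14.5, and the stages did not overlap (log2 fold change -0.52, SE 0.10, adjusted p = 0.000215). Ccne1 ran from 23.9 to 28.2 FPKM, with a median of 26.1, at E12.5 and from 19.5 to 23.0 FPKM, with a median of 20.8, at E14.5, also without overlap (log2 fold change -0.31, SE 0.10, adjusted p = 0.0150). Ccnb1 fell by 0.29 without overlap, and Gins1 by 0.29, Ccne2 by 0.25, Bub1 by 0.24, Tpx2 by 0.21, Mcm7 by 0.19 and Mcm4 by 0.18 on the log2 scale. Gins1 ran from 19.1 to 24.4 FPKM, with a median of 22.5, at E12.5 and from 16.4 to 20.4 FPKM, with a median of 17.8, at E14.5, and its stages overlapped (adjusted p = 0.0242).

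The other genes with values by sample were not called. Mki67 ran from 43.6 to 53.5 FPKM, with a median of 47.6, at E12.5 and from 38.0 to 54.5 FPKM, with a median of 51.1, at E14.5 (log2 fold change 0.03, adjusted p = 0.837). Top2a ran from 83.9 to 103 FPKM, with a median of 91.8, at E12.5 and from 79.1 to 94.3 FPKM, with a median of 89.9, at E14.5 (-0.06, adjusted p = 0.577). For Cdk1 the log2 fold change was -0.04, for Pcna -0.14, for Mcm5 -0.15 and for E2f1 0.13.

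With the Ret-holding libraries left out, 3 members fell in guts labelled Ret null from E12.5 to E14.5, Rrm2 (-0.50), Ccnb1 (-0.30) and Gins2 (-0.29), and 7.75% of all genes fell. With each library scaled by its median ratio 15 members fell, and the split over all genes went from 3324 higher and 1683 lower to 2672 higher and 2578 lower. Among 123 other cell cycle genes 11 rose and 15 fell. Cdkn2c rose by 0.87, Cdkn2b by 0.83 and Cdkn1a by 0.68 on the log2 scale, and E2f5 fell by 0.43, the CDK inhibitor gene Cdkn1c by 0.38 and the dUTPase gene Dut by 0.36. Of the markers, all 7 for smooth muscle, all 7 for epithelium and 4 of 5 for pancreas rose, and 3 of 6 for embryonic red cells fell. Mesenchyme markers summed to 153 to 355 FPKM at E12.5 and to 205 to 257 FPKM at E14.5 in guts labelled Ret null. The part of all these markers was not tested.

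**Figure D3:**
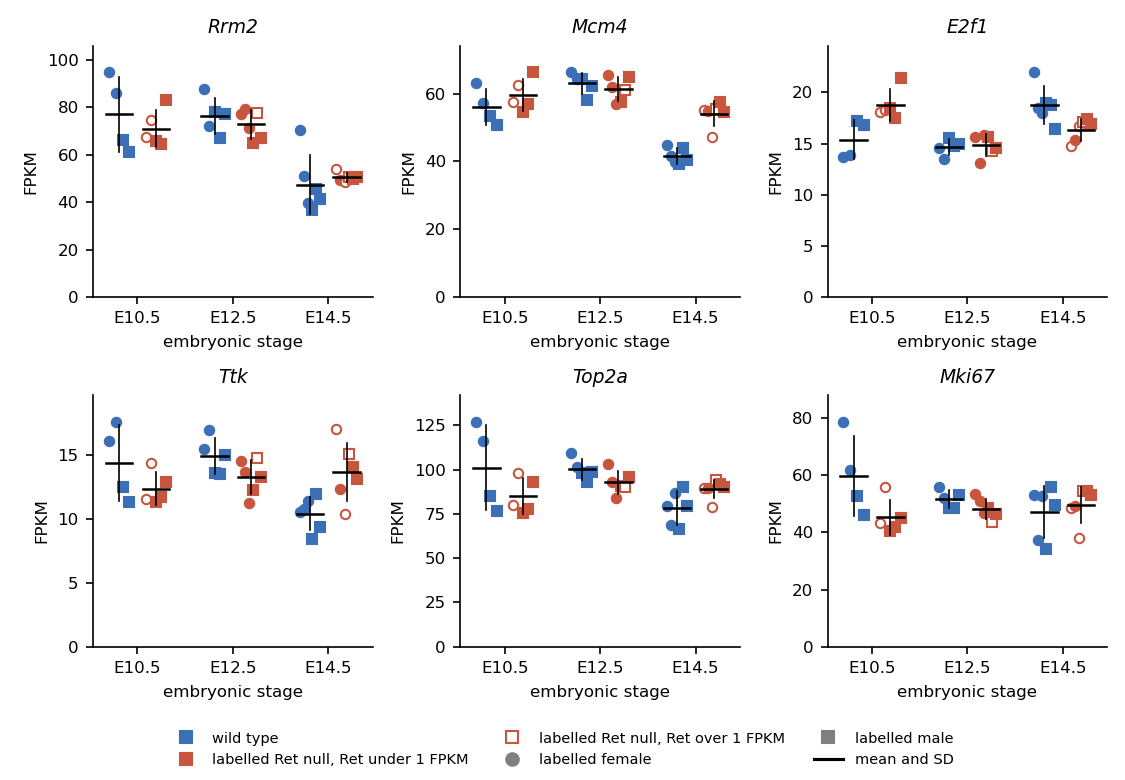
FPKM of Rrm2, Mcm4, E2f1, Ttk, Top2a and Mki67 in each sample by embryonic stage; circles are labelled female and squares male, open symbols are samples labelled Ret null with Ret above 1 FPKM, and bars show the mean and SD of each labelled genotype. At E14.5 every Mcm4 value of the samples labelled Ret null lies above every wildtype value (47.1 FPKM or more against 45.0 FPKM or less).

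The study's central question is what loss of Ret does, and at E10.5 it was asked over 13165 genes. Of the members only E2f1 was called, higher in guts labelled Ret null, where 5.61% of all genes were higher. It was at 18.1, 18.3, 18.5, 17.5 and 21.4 FPKM in the 5 samples labelled Ret null and at 13.7, 13.9, 17.2 and 16.8 FPKM in the 4 wildtype samples. The groups did not overlap, and both wildtype female samples were lower than both male ones (log2 fold change 0.27, SE 0.06, adjusted p = 0.0453). Nearest among the others were Mki67 (-0.35, adjusted p = 0.0666), Cenpf (-0.30, adjusted p = 0.0805) and Cenpe (-0.32, adjusted p = 0.0805), with overlapping groups. The median log2 fold change was -0.06 for replication and -0.11 for mitosis genes, against 0.01 over all genes.

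Mki67, Top2a, Rrm2 and Pcna overlapped between the labelled genotypes at E10.5. Mki67 was at 43.5, 55.8, 40.5, 41.7 and 45.1 FPKM in the samples labelled Ret null and at 78.6, 61.8, 52.8 and 46.0 FPKM in the wildtype ones. Top2a was at 80.2, 98.1, 75.7, 77.8 and 93.2 FPKM and at 127, 116, 85.3 and 76.4 FPKM, in the same order. Rrm2 was at 67.3, 74.7, 65.9, 64.4 and 83.2 FPKM and at 94.8, 86.0, 66.1 and 61.3 FPKM. In each of these genes the 2 wildtype female samples, listed first, were above the wildtype males. Pcna was at 182, 211, 185, 169 and 217 FPKM and at 248, 224, 175 and 167 FPKM (log2 fold change -0.06), and Ccnb1, Cdk1 and Mcm5 had log2 fold changes of -0.12, -0.09 and -0.06.

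The E2f1 call at E10.5 was not stable. It was kept in 2 of 17 alternatives, the pseudocount of 0.1 and every library counted as a sample. E2f1 was thus not among the members called with any 1 sample left out. Beside the counts with 1 sample left out, the share of all genes called is not given. Without the Ret-holding libraries, which leaves the 3 Ret null samples labelled male (male 1 held Xist and no Ddx3y) against 2 wildtype male samples, no member was called, 0.522% of all genes were called and E2f1 had a log2 fold change of 0.16 (adjusted p = 0.363); the members' median was then 0.14 and 37 of 42 were above 0. No member was called either without Ret null female 1 and 2, Ret null male 1, 2 or 3, wildtype female 1 and 2, wildtype male 3 and 4 or wildtype male 5, each left out in turn, and 3 were called without Ret null female 3. Of the markers, 5 of 7 for smooth muscle and 5 of 7 for epithelium were higher in the samples labelled Ret null; smooth muscle summed to 364 to 502 FPKM there and to 111 to 238 FPKM in wildtype samples, and its part was not tested. Of 122 other cell cycle genes 3 were higher, among them Cdc25b (19.1 ± 1.17 FPKM (SD, n = 5) against 11.7 ± 1.31 FPKM (SD, n = 4), log2 fold change 0.65), Ccnd3 (0.22) and Cdc7 (0.21), and 3 were lower: Aspm (-0.45), Kntc1 (-0.38) and Spc25 (-0.27).

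At E12.5, the deepest stage, no member was called between the labelled genotypes by limma, and 7 of 42 had an unadjusted p under 0.05, as did 8.46% of all genes. Of all 13182 genes 0.00759% were called, which is 1 gene, Mir3096b, named after its value was seen. The members' log2 fold changes were below 0 for 38 of 42, with medians of -0.07 for replication and -0.10 for mitosis genes, and they ran from -0.18 for Ttk to 0.08 for Cdt1. Mcm4 ran from 57.1 to 65.4 FPKM, with a median of 61.4, in the samples labelled Ret null and was at 66.2, 64.4, 64.4, 58.1 and 62.3 FPKM in the wildtype ones. E2f1 ran from 13.1 to 15.8 FPKM, with a median of 15.1, and was at 14.54, 13.5, 15.6, 14.8 and 15.0 FPKM in wildtype. Both pairs of groups overlapped. Without the Ret-holding male 2 no member was called, 0.259% of all genes were, and 36 of 42 members were below 0.

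At E14.5 the direction of the estimates was mixed and 2 members were called, both helicase subunits and both higher in guts labelled Ret null. Over all 13861 genes 10.9% were higher, so 2 of 42 is not a larger share than over the whole table. Mcm4 ran from 47.1 to 57.6 FPKM, with a median of 55.0, in the samples labelled Ret null and from 39.1 to 45.0 FPKM, with a median of 40.9, in the wildtype ones. The lowest of the first 6, female 3, was still above the highest of the wildtype 6, female 1 (54.1 ± 3.62 FPKM (SD, n = 6) against 41.6 ± 2.36 FPKM (SD, n = 6), log2 fold change 0.37, SE 0.06, adjusted p = 0.00828). Mcm6 ran from 85.3 to 95.4 FPKM, with a median of 94.1, and from 73.5 to 87.8 FPKM, with a median of 79.7, respectively, and only wildtype female 1 reached into the other group (log2 fold change 0.20, SE 0.05, adjusted p = 0.0211). The other 4 subunits of the hexamer were not called: Mcm2 (0.09), Mcm3 (0.09), Mcm5 (-0.05) and Mcm7 (0.08).

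Ttk missed the threshold at E14.5. It ran from 10.4 to 17.1 FPKM, with a median of 13.6, in the samples labelled Ret null and from 8.42 to 11.98 FPKM, with a median of 10.7, in the wildtype ones (log2 fold change 0.36, SE 0.11, adjusted p = 0.0527). Top2a ran from 79.1 to 94.3 FPKM, with a median of 89.9, and from 66.2 to 90.1 FPKM, with a median of 79.4, with overlap (log2 fold change 0.19, adjusted p = 0.123). Rrm2 ran from 48.7 to 54.2 FPKM, with a median of 50.1, and from 36.7 to 70.4 FPKM, with a median of 43.6 (log2 fold change 0.12, adjusted p = 0.466). The wildtype Rrm2 values lay on both sides of those labelled Ret null. E2f1 had the lowest estimate of the 42 (-0.18, adjusted p = 0.0679), and Pcna, Cdk1, Ccnb1 and Mki67 had -0.06, -0.08, 0.01 and 0.08.

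Mcm4 was called at E14.5 under all 21 alternatives run, with log2 fold changes from 0.32 to 0.42 and adjusted p from 0.00180 to 0.0308. After the Ret-holding libraries were left out it was the 1 member called (0.41, adjusted p = 0.0191), and 3.96% of all genes were higher. The number of members called was 1 without Ret null female 1 or Ret null male 1, 2 or 3, and 6 without Ret null female 3. It was 6 without wildtype female 3, 5 without wildtype male 2, and 4 without the liver-rich and heart-rich wildtype libraries. The share of all genes called is not given beside these counts. They therefore do not show whether the members moved more than the whole table. Median-ratio scaling turned the split over all genes from 1504 higher and 671 lower to 727 higher and 884 lower and left Mcm4 as the 1 member called. Depth was 6.17 to 8.06 M fragments for the Ret null label and 4.85 to 6.76 M for wildtype. Under the Ret null label 3 of 6 mesenchyme markers were higher and 3 of 5 tested pancreas markers lower. The mesenchyme sums separated the labelled genotypes fully, at 205 to 257 FPKM for Ret null and 105 to 174 FPKM for wildtype. The part of depth and of these markers was not tested.

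Other cell cycle genes at E14.5 gave 16 higher and 2 lower calls of 123. The higher ones with the largest differences were Depdc1a (12.54 ± 1.34 FPKM (SD, n = 6) against 9.21 ± 1.02 FPKM (SD, n = 6), log2 fold change 0.41, adjusted p = 0.0172), Wee1, the kinase that holds Cdk1 inactive (0.33), and Pole, the catalytic subunit of the leading-strand polymerase (0.32). Both lower ones were CDK inhibitors: Cdkn1a was 10.7 ± 1.29 FPKM (SD, n = 6) against 16.3 ± 3.75 FPKM (SD, n = 6) (log2 fold change -0.54, adjusted p = 0.0264), and Cdkn2c was 4.45 ± 0.662 FPKM (SD, n = 6) against 5.69 ± 0.610 FPKM (SD, n = 6) (-0.30, adjusted p = 0.0420).

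Whether the change with stage itself differed between the labelled genotypes was tested as the difference of the E14.5 to E12.5 fold changes. It passed for 8 members, all in 1 direction: the fold change was higher, that is the fall was smaller or absent, in guts labelled Ret null. Of these 2 were replication genes, Mcm4 and Mcm6, and 6 were mitosis genes, Ttk, Cenpe, Cenpf, Bub1, Top2a and Kif23, and over all 14321 genes 11.2% were called in that direction. The fold changes of each genotype use the same samples as the comparisons above and are not independent of them.

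Ttk had the largest difference, with a log2 fold change of -0.50 in wildtype and 0.03 in guts labelled Ret null (difference 0.53, SE 0.13, adjusted p = 0.0120). In the samples labelled Ret null it ran from 11.3 to 14.8 FPKM, with a median of 13.5, at E12.5 and from 10.4 to 17.1 FPKM, with a median of 13.6, at E14.5, so that the later values spread on both sides of the earlier ones. For Cenpe the log2 fold changes were -0.57 and -0.15 (difference 0.43, SE 0.14, adjusted p = 0.0398), and it ran from 11.5 to 14.9 FPKM, with a median of 13.6, at E12.5 and from 9.87 to 13.1 FPKM, with a median of 12.49, at E14.5 in the samples labelled Ret null. Mcm4 fell in both, by 0.60 and 0.18 (difference 0.42, SE 0.08, adjusted p = 0.00295), and ran from 57.1 to 65.4 FPKM, with a median of 61.4, at E12.5 in the samples labelled Ret null. Bub1 also fell in both, and Cenpf, Top2a, Mcm6 and Kif23 fell in wildtype alone by the test.

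The differences for the remaining 5 were 0.38 for Cenpf (adjusted p = 0.0496), 0.34 for Bub1 (0.0382), 0.31 for Top2a (0.0499), 0.29 for Mcm6 (0.0104) and 0.28 for Kif23 (0.0253). Rrm2, the member with the largest fall in either genotype, had a difference of 0.20 (adjusted p = 0.325), Ccnb1 of 0.11 (0.417) and Mki67 of 0.19 (0.378). E2f1 had the lowest difference (-0.21, adjusted p = 0.0802). The median was 0.12 for replication genes and 0.11 for mitosis genes, against 0.02 over all genes. Of the markers, 2 of 6 for mesenchyme had a positive difference and 3 of 5 for pancreas a negative one, and their part was not tested.

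Mcm4 and Ttk kept their call under all 32 alternatives, whereas the count of 8 did not hold. Without the Ret-holding libraries 5 members were called (Mcm4, Bub1, Ttk, Kif11 and Cenpe), where 10.7% of all genes were, and with median-ratio scaling 3 (Mcm4, Mcm6 and Ttk), with the split over all genes going from 1602 higher and 887 lower to 1019 higher and 1173 lower. It was 3 without E12.5 Ret null female 3, E12.5 wildtype female 1 and 2 or E14.5 Ret null female 1, and 4 without E12.5 Ret null male 1, E12.5 wildtype female 3, E12.5 wildtype male 3, E14.5 Ret null female 2, male 2 or male 3, or E14.5 wildtype female 1, female 2 or male 1. It was 5 without E12.5 Ret null male 3, E12.5 wildtype male 1 or E14.5 Ret null male 1. No share of all genes is given beside the counts with 1 sample left out, so they do not compare the members with the whole table.

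Other cell cycle genes were called in the same comparison in 30 cases as higher and in 3 as lower, of 123. Depdc1a (0.55), the mitotic motor gene Kif15 (0.43) and Pole (0.41) had the largest positive differences. Cdkn1a (-0.78), E2f2 (-0.77) and Cdkn2d (-0.42) were the 3 with negative ones. For the step from E10.5 to E12.5 no member was called for a difference between the labelled genotypes, with 3 of 42 at an unadjusted p under 0.05 (14.6% of all genes) and 1.34% of all genes called. The 1 other cell cycle gene called there was Cdc25b (-0.70). Without the Ret-holding libraries no member was called there either (0.00702% of all genes), and without E12.5 Ret null female 1 there was 1.

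Ret RNA divided the samples labelled Ret null, and the members' levels are set side by side without a test. At E14.5, 3 samples held Ret and 3 did not. Of those without Ret, male 2 and male 3 differed by little more than sampling noise and may not be independent. The median over genes of the log2 difference, without minus with Ret, was -0.04 for replication genes, from -0.25 for Gins2 to 0.09 for Mcm4, and 0.00461 for mitosis genes, from -0.16 for Birc5 to 0.26 for Kif11. Mcm4 was at 54.8, 57.6 and 54.5 FPKM in the samples without Ret and at 55.1, 47.1 and 55.4 FPKM in those with it, both above the wildtype range. Ttk was at 12.3, 14.1 and 13.2 FPKM without Ret and at 17.1, 10.4 and 15.1 FPKM with it, where both the highest and the lowest Ttk values lay. The medians were -0.02 and -0.04 at E10.5 (2 samples with Ret, 3 without) and -0.02 and 0.02 at E12.5 (1 with, 5 without). Enteric neuron markers summed to 163 to 179 FPKM in the E14.5 samples with Ret and to 17.1 to 27.1 FPKM in those without.

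The spread of the E10.5 wildtype samples followed the labelled sex, a comparison added after the values were seen. In it 17 members were higher in females and none lower, 5 in replication and 12 in mitosis, where 5.07% of all 13165 genes were higher. The median log2 fold change of the 42 was 0.42, against -0.00287 over all genes. Mad2l1 was at 44.8 and 47.7 FPKM in the 2 female samples and at 29.2 and 28.9 FPKM in the 2 male ones (log2 fold change 0.65, SE 0.09, adjusted p = 0.0204). Bub1 was at 25.8 and 26.6 FPKM and 17.1 and 16.0 FPKM (log2 fold change 0.63, SE 0.12, adjusted p = 0.0284). The origin licensing gene Cdc6 was at 13.3 and 12.04 FPKM and 8.49 and 7.38 FPKM (log2 fold change 0.62, SE 0.12, adjusted p = 0.0291). In 40 of the 42 members both female samples lay above both male ones, as in 31.5% of all genes; Cdt1 overlapped, and E2f1 was the reverse (13.7 and 13.9 against 17.2 and 16.8 FPKM), without passing the test (adjusted p = 0.0916).

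The other members called higher in E10.5 wildtype females were Mcm10 (0.60), Rrm1 (0.50), Rrm2 (0.50) and Mcm3 (0.42) in replication, and Top2a (0.58), Kif20a (0.53), Ccnb1 (0.51), Ttk (0.47), Aurka (0.46), Tpx2 (0.44), Kif11 (0.43), Birc5 (0.42), Ccna2 (0.42) and Cdk1 (0.41) in mitosis. Pcna (0.46, adjusted p = 0.0562), Mki67 (0.49, adjusted p = 0.0715) and Mcm5 (0.29, adjusted p = 0.168) did not pass. Of 122 other cell cycle genes 29 were higher and none lower, led by Hmmr (0.67), the licensing inhibitor gene Gmnn (0.63) and Rfc4 (0.63), a subunit of the clamp loader.

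These calls rest on few samples. Leaving out wildtype female 3, male 3 and 4, or male 5 left no call, and leaving out wildtype female 1 and 2 left 1. Each omission leaves 1 sample on a side, which is assumed to vary like the other groups, and the members' median log2 fold change was then 0.35 to 0.45. Liver markers moved with the same split: 5 of 6 were higher in females, where they summed to 667 to 878 FPKM against 17.9 to 20.9 FPKM in males, and 5 of 7 smooth muscle markers were lower (111 to 120 FPKM against 211 to 238 FPKM). Enteric neuron markers summed to 17.2 to 31.2 FPKM in females and 54.3 to 85.1 FPKM in males (2 of 7 lower), and crest progenitor markers to 16.2 to 27.6 FPKM and 41.9 to 42.1 FPKM (1 of 6 lower). The sums of pancreas (2.17 to 8.52 against 9.50 to 13.8 FPKM), macrophage (11.8 to 19.1 against 20.2 to 23.4 FPKM) and epithelial markers (122 to 285 against 90.3 to 91.9 FPKM) did not overlap either. The female libraries were also deeper, at 13.6 to 17.7 M fragments against 6.85 to 7.48 M fragments. These marker sums, depth and labelled sex cannot be told apart in these samples.

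At the later stages the labelled sexes of wildtype guts gave no call among the members. At E12.5 0.0152% of all genes were called and the members' median was 0.04, with none at an unadjusted p under 0.05 (1.34% of all genes). The female side there had 2 samples. In the averaged females 1 and 2, Xist was at 49.1 and 52.2 FPKM and Ddx3y at 4.91 and 4.98 FPKM. At E14.5 0.0505% of all genes were called, 35 of 42 members were above 0 with a median of 0.10, and 2 had an unadjusted p under 0.05 (4.16% of all genes). Whether the genotype difference at E10.5 depended on the labelled sex was tested by the interaction in limma. It was called for no member and for 0% of all 13165 genes. An unadjusted p under 0.05 was found for 25 of 42 members and for 2459 of all genes (18.7%). The estimates were below 0 for 41 of 42 members, with a median of -0.39, against -0.02 over all genes. All E10.5 samples labelled Ret null female held Ret and none labelled Ret null male did. Ret null female 3 held Ddx3y and male 1 held Xist. Labelled sex and Ret level cannot be told apart in that arm. The test shares its wildtype samples with the E10.5 sex comparison and is not independent of it.

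**Figure D4:**
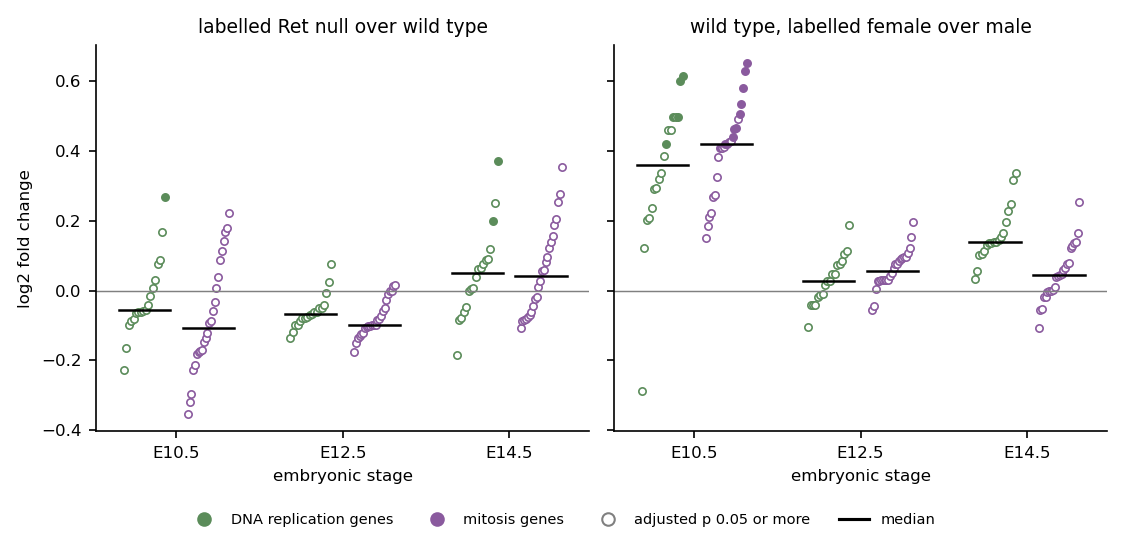
Log2 fold change of each member by stage, for guts labelled Ret null over wildtype (left) and for labelled female over male wildtype guts (right); filled points passed an adjusted p of 0.05 and bars are medians of the 18 replication and 24 mitosis genes. The E10.5 sex comparison stands out with 17 filled points, against 1 and 2 for the labelled genotype at E10.5 and E14.5.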

How the data were processed

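Each of the 36 libraries had 1 table of gene-level FPKM values. Per the file headers, the authors deposited FPKM with lower and upper confidence bounds and a status for each gene entry; TopHat2, Cufflinks, Cuffdiff, Picard and the mm10 build are named in the submitters' processing notes, and the sources used here give no versions, settings or normalization. FPKM are not counts, so no count test was used. Fragments per gene and library depth were estimated from the width of those confidence bounds.

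Libraries were grouped by the stage, genotype and sex in the labels. Pairs of libraries of 1 group whose differences were within sampling noise were averaged. Differences were tested with limma 3.58.1 in R 4.3.3 (trend = TRUE) on log2(FPKM + 1), over genes with FPKM of 1 or more in at least 3 samples and status OK in every library, with group means for each stage, labelled genotype and sex and contrasts averaged over the sexes. Genotype was tested within each stage, and stage and its interaction in 1 fit of all 32 samples. Tests are two-sided, p-values are Benjamini-Hochberg adjusted over all genes tested, and called means an adjusted p under 0.05. The pseudocount makes fold changes of low genes too small. All 42 members passed the filter. The fits were tested on simulated data, where 94% to 98% of changes of 1 or 2 on the log2 scale were recovered. The members' median changes were smaller than these, so a member not called is not shown to be unchanged. Python 3.11.15 with pandas 2.3.3, numpy 2.4.6 and matplotlib 3.10.9 was used for the rest.

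The members, the lists of other genes and the tests were chosen with earlier results of these data known. All members are named by role; values per sample are given for 8 chosen genes and for up to 3 members called higher and 3 called lower in each comparison, by size of the log2 fold change, and a few more (Kif23, Ttk, Bub1, Cenpe) were named after their values were seen. Of other cell cycle genes up to 3 a direction are named. Alternatives were a pseudocount of 0.1, no filter, every library as a sample, median-ratio scaling, no sex term, a replicate block, and leaving out Ret-holding libraries, libraries whose sex RNA went against the label, or each sample in turn. The sex comparisons and the alternative without liver-rich or heart-rich libraries (marker sum over 1000 FPKM) were added after seeing the data.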

Additional observations from a re-analysis of the deposited data

Results flagged for a closer look

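The 8 genes with fixed values in 6 stage and genotype groups gave 48 groups of 4 to 6 samples. In these, 4 values lay farther from the rest of their group than Dixon's limit at 95% allows. Chance flags about 1 in 20 groups. The 8 genes were measured in the same samples, so the flags are not independent. E2f1 was at 21.4 FPKM in E10.5 Ret null male 3, above the other 4 samples labelled Ret null. Rrm2 was at 54.2 FPKM in E14.5 Ret null female 1, above its group. In E14.5 Ret null female 3, Mki67 was at 38.0 FPKM and Top2a at 79.1 FPKM, both below their group.

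A difference between the labelled genotypes in the change from E12.5 to E14.5, by the interaction test in limma with Benjamini-Hochberg adjustment, was found for 8 members: Ttk 0.53, Cenpe 0.43, Mcm4 0.42, Cenpf 0.38, Bub1 0.34, Top2a 0.31, Mcm6 0.29 and Kif23 0.28 on the log2 scale. The log2 fold changes of Ttk, Cenpf and Top2a were 0.03, -0.03 and -0.06 in guts labelled Ret null and -0.50, -0.42 and -0.37 in wildtype guts.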

How the results depend on the processing

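Of 1441 values of single genes listed under the alternatives, 1140 stayed on their side of the threshold, 260 were no longer called, 41 became called and 0 reversed. Values with 1 sample left out are in that list only where the call changed, so unchanged ones are undercounted. A change of sign counted as reversed only if the gene was called in either fit. Genes not called could change sign, as Pcna did between genotypes at E10.5 (log2 fold changes from -0.11 to 0.15). Counts of members called moved by over 1.5 times in the following cases. Counting every library as a sample gave 3 in wildtype from E10.5 to E12.5 (0 before), 16 between genotypes at E10.5 (1), 1 for genotype by stage from E10.5 to E12.5 (0), 36 between the sexes of E10.5 wildtype guts (17) and 20 for genotype by sex (0). Median-ratio scaling gave 15 in guts labelled Ret null from E12.5 to E14.5 (9), 0 between genotypes at E10.5 (1) and 1 at E14.5 (2), 3 for genotype by stage from E12.5 to E14.5 (8) and 11 between the sexes at E10.5 (17). No filter gave 0 between genotypes at E10.5, 4 for genotype by stage from E12.5 to E14.5 and 4 between the sexes at E10.5. Leaving sex out of the model gave 0 between genotypes at E10.5 and 4 for genotype by stage from E12.5 to E14.5. Without the Ret-holding libraries the counts were 0 in guts labelled Ret null from E10.5 to E12.5 (1), 3 from E12.5 to E14.5 (9), 0 between genotypes at E10.5, 1 at E14.5 and 5 for genotype by stage from E12.5 to E14.5. Without the libraries whose sex RNA went against the label they were 0 between genotypes at E10.5, 3 for genotype by stage and 5 between the sexes. Without the liver-rich and heart-rich libraries 4 were called between genotypes at E14.5, and 12 for genotype by stage from E12.5 to E14.5. Beside most of these counts, and beside those with 1 sample left out, the share of all genes called is not given. Such counts do not show whether the members moved more than the whole table. The cause was not tested.

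Leaving out 1 sample at a time gave 21 to 29 members in wildtype and 6 to 11 in guts labelled Ret null from E12.5 to E14.5, 0 to 3 between genotypes at E10.5 and 1 to 6 at E14.5, 0 to 1 and 3 to 10 for genotype by stage at the first and second step, and 0 to 1 between the sexes at E10.5. The other counts did not move.

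Replicate numbers showed no clear pairing in a pooled check. Same-numbered libraries of different groups had deviations correlated with a median r of 0.04, from -0.36 to 0.37, and 13 of 48 pairs were over 0.1. For pairs of different number the median was -0.007, and 26 of 114 were over 0.1. At E10.5 the same-numbered Ret null female and male pairs had r of 0.19, 0.16 and 0.37, and the other same-numbered pairs -0.03 to 0.07. With 3 libraries a group the check is weak and does not decide whether the numbers mark pairs. With every library counted, adding the number as a replicate block moved the members called from 16 to 1 (Nusap1) between genotypes at E10.5, from 20 to 4 for genotype by sex, from 36 to 18 between the sexes at E10.5, from 3 to 0 in wildtype and from 1 to 0 for genotype by stage from E10.5 to E12.5, and from 11 to 10 in guts labelled Ret null from E12.5 to E14.5. It left 28 in wildtype and 8 for genotype by stage from E12.5 to E14.5, 2 between genotypes at E14.5 and the other counts as they were.

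Depth limits the members with few fragments most: for Gins1 the smallest estimate was 92.6 fragments in a library, which alone gives a counting error of 10.4%.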
